A study of Mus musculus with 32 samples.

Results

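The genes described here are 44 genes of the interferon response and of antigen presentation on MHC class I, out of 55938 genes in the deposited expression table of mouse lumbar spinal cord. They were chosen by name: every row whose Ensembl identifier carried one of the 44 symbols was taken, and all 44 were found. They comprise 4 sensors of foreign nucleic acid, 6 transcription regulators, 13 antiviral effectors, 5 enzymes of ubiquitin-like and ADP-ribose modification, 7 interferon-inducible GTPases and 9 genes of MHC class I presentation. After the filter on low counts 42 of them could be tested. The sensor Zbp1 averaged 0.0656 CPM (counts scaled to a common library total) in Trap and 0.134 CPM in Input, the antiviral GTPase Mx1 averaged 0.162 CPM in Trap and 0.136 CPM in Input, and both were left out of the tests.

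The libraries came from mice that all carried Aldhl1l-CreER;Rpl22-HA, as the labels spell it: a tamoxifen-inducible Cre recombinase under the astrocyte promoter Aldh1l1, and a Cre-dependent HA tag on the ribosomal protein Rpl22. Trap libraries hold RNA that was pulled down with tagged ribosomes, and Input libraries hold RNA of the whole homogenised cord. Mice of both sexes had a fracture 3, 5 or 7 weeks earlier, which serves to model complex regional pain syndrome, or were uninjured. There were 3 Trap libraries and 1 Input library for each combination of sex and injury state, which makes 24 Trap and 8 Input libraries. A limit of the model is that the tag depends on recombination under 1 promoter, and Trap libraries still held some RNA of other cells. Nothing in the labels ties each library to its own animal, so every p-value here measures the spread between libraries, which may in part be technical.

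Interferons are secreted signals that induce an antiviral state. Type I interferons act through the receptor Ifnar1 and Ifnar2 and the kinases Jak1 and Tyk2 on a complex that holds Stat2 and Irf9 and binds a DNA element called the interferon-stimulated response element (ISRE), whereas interferon gamma acts through Ifngr1 and Ifngr2 on genes that carry the gamma-activated site (GAS). MHC class I molecules, made of a heavy chain and the light chain B2m, display peptides that the immunoproteasome cuts and the transporter Tap1 and Tap2 carries into the endoplasmic reticulum. Astrocytes are known to respond to both kinds of interferon.

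Library totals ran from 17124034 to 23189228 estimated counts. The 10 astrocyte markers summed to 42913 to 55350 CPM in Trap and to 5081 to 5717 CPM in Input, and all 10 were higher in Trap by edgeR's quasi-likelihood test. The 10 microglial markers summed to 57.4 to 83.4 CPM in Trap and to 317 to 439 CPM in Input, and all 10 were lower in Trap. The 10 endothelial, 8 neuronal and 8 oligodendrocyte markers were lower in Trap without exception. All 6 markers of blood and neutrophils were higher in Trap, at 218 to 1501 CPM against 113 to 190 CPM in Input, and 3 of the 8 mural and fibroblast markers were higher in Trap while 5 were lower. Markers of T cells and natural killer cells summed to at most 0.354 CPM in Trap and 0.467 CPM in Input. The Trap libraries of male 7 weeks replicate 2 and female 3 weeks replicate 3 were the least like the others, with median correlations of 0.963 and 0.979 with the rest over well-expressed genes.

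The promoters of these genes were searched for both elements. RefSeq promoter windows of build GRCm38.p6, from 250 bases before to 50 bases after a gene's start, were found for 33 of the 44 genes. The core letters of the ISRE, a GAAA repeated after 2 bases of any kind, or a TTTC repeated likewise for the other strand, occurred in 17 of the 33 genes (51.5%), against 1079 of 27025 genes (3.99%) with such windows. The core letters of the GAS, TTCNNNGAA, which read the same on both strands, occurred in 9 of the 33 (27.3%), against 2582 of 27025 genes (9.55%). In 2 genes, Bst2 and Ifitm3, a match to one overlapped a match to the other. By role, ISRE letters were found in 6 of 6 GTPase genes with a window, 2 of 2 sensor genes, 6 of 10 effector genes, 2 of 8 class I presentation genes, 1 of 5 transcription regulators and 0 of 2 enzymes of ubiquitin-like and ADP-ribose modification. A match describes the letters in the window and not a bound site. Only exact matches were counted, so a gene without one may still hold a near form of the element. The windows of H2-K1 and H2-D1, for example, hold tttcacttct, which was not counted. The 250 bases upstream of the start are shown for 3 genes of the antiviral arm and 2 of the class I arm, with ISRE letters in capitals. Isg15 (chr4:156200819-156201068, minus strand) has 3 overlapping matches, Ifit3 (chr19:34583279-34583528, plus strand) has 2 separate ones, Gbp3 (chr3:142559794-142560043, plus strand) has 2 overlapping ones at 1 of its starts, B2m (chr2:122147437-122147686, plus strand) has 1, and H2-K1 (chr17:34000348-34000597, minus strand) has none of these letters in the window.
Isg15: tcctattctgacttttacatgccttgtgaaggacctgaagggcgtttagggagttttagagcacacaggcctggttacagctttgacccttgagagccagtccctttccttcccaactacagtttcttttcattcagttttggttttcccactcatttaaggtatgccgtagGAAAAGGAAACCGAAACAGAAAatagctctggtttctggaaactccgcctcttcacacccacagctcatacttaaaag
Ifit3: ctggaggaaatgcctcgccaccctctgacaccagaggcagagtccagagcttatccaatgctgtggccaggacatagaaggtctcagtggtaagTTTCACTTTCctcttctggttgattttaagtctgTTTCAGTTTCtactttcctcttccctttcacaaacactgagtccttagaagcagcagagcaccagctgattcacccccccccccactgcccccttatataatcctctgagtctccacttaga
Gbp3: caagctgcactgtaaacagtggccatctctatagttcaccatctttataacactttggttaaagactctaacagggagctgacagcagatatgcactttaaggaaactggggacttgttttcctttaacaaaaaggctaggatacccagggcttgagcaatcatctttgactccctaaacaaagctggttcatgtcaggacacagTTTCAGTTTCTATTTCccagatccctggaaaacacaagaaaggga
B2m: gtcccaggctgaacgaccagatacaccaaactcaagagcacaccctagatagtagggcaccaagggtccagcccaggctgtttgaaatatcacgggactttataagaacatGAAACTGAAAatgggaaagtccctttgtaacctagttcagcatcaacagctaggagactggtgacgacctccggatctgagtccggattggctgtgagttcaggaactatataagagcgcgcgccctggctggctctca
H2-K1: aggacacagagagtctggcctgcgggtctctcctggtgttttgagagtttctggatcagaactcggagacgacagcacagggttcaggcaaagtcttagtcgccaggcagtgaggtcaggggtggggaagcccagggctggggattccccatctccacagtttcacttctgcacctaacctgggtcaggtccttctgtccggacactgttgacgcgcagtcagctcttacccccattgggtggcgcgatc

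Setting Trap against Input asks which of these RNAs were enriched on astrocyte ribosomes relative to the whole cord. Of the 42 genes tested, 38 were higher in Trap, 2 were lower and 2 did not pass the test, in edgeR's quasi-likelihood test adjusted over all genes. Among all 15913 genes tested 44.4% were higher in Trap and 43.7% lower. The median log2 difference of Trap over Input was 1.67 over the 42 genes and 0.02 over all genes. For 28 of the 42 genes every Trap library lay above every Input library, as it did for 27.5% of all genes, and for 0 of the 42 every Trap library lay below, as it did for 29.1% of all genes. The tissue is sampled in bulk, so a difference in the number of cells of a type and a difference in RNA per cell cannot be told apart.

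**Figure D1:**
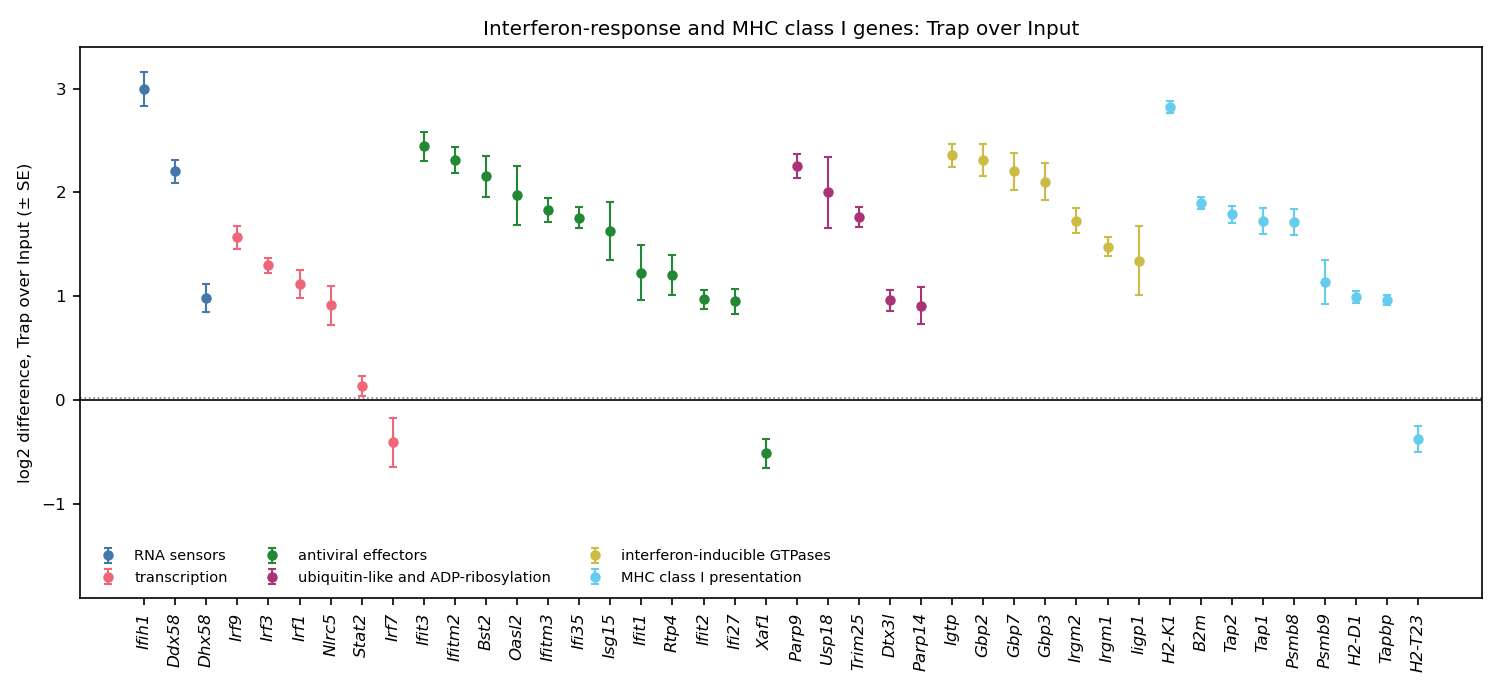
Log2 difference of Trap over Input (vertical axis) for the 42 genes tested, with bars for the standard error, grouped and coloured by role; the dotted line is the median of all genes. All points lie above 0 except Irf7, Xaf1 and H2-T23, and Ifih1 and H2-K1 lie highest.

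Of the 3 cytosolic RNA sensors tested, Ifih1 and Ddx58 lay above the median of the 42 genes and Dhx58 below it. Ifih1 encodes MDA5, the sensor of long double-stranded RNA, and lies at chr2:62595798-62646255 (GRCm38). Its level was 12.4 to 24.7 CPM in Trap (median 19.0) and 1.04 to 3.70 CPM in Input (median 2.64). The groups did not overlap, and the log2 difference was 3.00 ± 0.16 (SE; edgeR adjusted p = 3.6e-19). Ddx58, which encodes RIG-I, the sensor of RNA ends, spanned 11.7 to 23.5 CPM in Trap and 2.47 to 4.80 CPM in Input, a log2 difference of 2.20 ± 0.11. Dhx58, a related helicase, was higher by 0.99 ± 0.14. All 3 sensors that could be tested were therefore higher in Trap, with a median of 2.20.

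The regulators of transcription divided. Irf9, the DNA-binding subunit of the type I response complex, averaged 20.5 ± 4.06 CPM in Trap and 6.89 ± 1.41 CPM in Input (SD, n = 24 and 8), a log2 difference of 1.57 ± 0.11. Irf3, the factor that sensors activate to switch on interferon genes, was higher by 1.30 ± 0.07, Irf1 by 1.12 ± 0.13 and Nlrc5, the regulator of class I genes, by 0.91 ± 0.19. Stat2, the partner of Irf9 in the complex, averaged 14.0 ± 2.66 CPM in Trap and 12.7 ± 1.27 CPM in Input and did not pass the test (log2 difference 0.14 ± 0.10, edgeR adjusted p = 0.177). Irf7, the factor that amplifies a type I response, averaged 1.73 ± 0.684 CPM in Trap and 2.30 ± 1.25 CPM in Input and did not pass the test either (−0.40 ± 0.23, edgeR adjusted p = 0.107). The Irf7 call depended on single libraries. Leaving out the Trap library of females at 3 weeks numbered 1, or the Input library of females at 5 weeks, of uninjured females or of males at 3 weeks, gave differences of −0.48, −0.52, −0.52 and −0.54, each past the threshold (edgeR adjusted p between 0.0311 and 0.0466). Leaving out the Input library of females at 3 weeks instead gave −0.18 (edgeR adjusted p = 0.461). With DESeq2 size factors in the same test Irf7 came to −0.50 (edgeR adjusted p = 0.0461), and Stat2 to 0.04. In Input, Irf7 fell into 2 bands, 3.37 to 3.63 CPM in females at 3 weeks and in males that were uninjured or at 5 or 7 weeks, and 1.01 to 1.26 CPM in the other 4 libraries.

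Antiviral effectors made up the broadest group, with 11 of 12 tested genes higher in Trap and a median of 1.70. Ifit3, which binds viral RNA with its relatives Ifit1 and Ifit2, had 27.5 to 67.1 CPM in Trap (mean 43.9 ± 10.3, n = 24) and 5.71 to 13.3 CPM in Input (mean 8.09 ± 2.44, n = 8). No Input library reached the lowest Trap library, and the log2 difference was 2.44 ± 0.14. Ifit1 and Ifit2, of the same cluster on chromosome 19, were higher by 1.23 ± 0.26 and 0.97 ± 0.09. Reads of Ifit3 and of its near-identical neighbour Ifit3b can be divided in other ways by the counting, so the level of each is uncertain. The membrane proteins that restrict virus entry, Ifitm2 and Ifitm3, were higher by 2.32 ± 0.12 and 1.83 ± 0.12, with the same caution, since they resemble each other. Bst2, which tethers budding virus to the cell, was higher by 2.15 ± 0.19, and Ifi35 by 1.76 ± 0.10. Isg15, the ubiquitin-like modifier, was low: 0.940 to 5.04 CPM in Trap and 0.174 to 1.25 CPM in Input. Its groups overlapped slightly and the log2 difference was 1.63 ± 0.28. Xaf1, a pro-apoptotic gene, was the exception, with 2.17 ± 0.588 CPM in Trap and 3.10 ± 0.639 CPM in Input (SD, n = 24 and 8), a log2 difference of −0.51 ± 0.14 (edgeR adjusted p = 0.00101).

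All 5 enzymes of ubiquitin-like and ADP-ribose modification were higher in Trap, with a median of 1.76. Parp9 was higher by 2.26 ± 0.11, and Dtx3l, its ubiquitin-ligase partner, by 0.96 ± 0.10. Their loci overlap on opposite strands of chromosome 16, and whether the counting used strand is not given in the sources used here, so part of the reads may be shared. Trim25, the ligase that acts on RIG-I, was higher by 1.76 ± 0.10. Usp18, which removes Isg15 from proteins and damps the type I receptor, was higher by 2.00 ± 0.34.

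All 7 interferon-inducible GTPases, a group that acts in the defence against intracellular pathogens, were higher in Trap, with a median of 2.11. Igtp had 13.2 to 21.4 CPM in Trap (median 16.1) and 2.12 to 4.24 CPM in Input (median 3.30), without overlap, and the log2 difference was 2.36 ± 0.11. Gbp2 was higher by 2.31 ± 0.15. The annotated spans of Igtp and Irgm2 overlap on the same strand of chromosome 11, so their counts are not independent. Iigp1 was the lowest of the group, at 0.455 to 3.52 CPM in Trap and 0.243 to 1.99 CPM in Input. Its groups overlapped, and the log2 difference was 1.34 ± 0.33.

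Genes of MHC class I presentation held the highest levels of the module. Per kilobase of exon, B2m stood first in Trap at 282 ± 27.4 CPM per kb, followed by H2-K1 at 74.4 ± 6.68 and H2-D1 at 67.8 ± 7.25 (SD, n = 24). H2-K1 and H2-D1 differ by less than the sum of their standard deviations. Both were measured in the same 24 libraries, so this spread between libraries does not settle their order. B2m, at chr2:122147686-122153083, had 210.0 to 325 CPM in Trap (median 238) and 57.4 to 74.0 CPM in Input (median 64.0). The groups were far apart and the log2 difference was 1.90 ± 0.05. H2-K1, a classical heavy chain at chr17:33996017-34000347, had 189 to 267 CPM in Trap (median 216) and 21.8 to 36.7 CPM in Input (median 32.6), a log2 difference of 2.82 ± 0.06. H2-D1, the other classical heavy chain, at chr17:35262730-35267499, had 141 to 221 CPM in Trap (median 172) and 66.6 to 103 CPM in Input (median 91.3), a log2 difference of 0.99 ± 0.06. The heavy chains therefore stood in a different ratio in the pull-down. H2-K1 CPM divided by H2-D1 CPM was 1.26 ± 0.0945 in Trap (1.13 to 1.56, n = 24) and 0.354 ± 0.0336 in Input (0.316 to 0.419, n = 8), with no overlap. Class I genes are similar in sequence and reads may be divided among them, so the ratio itself is uncertain.

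The machinery that loads class I molecules was higher as well. Tap2 was higher by 1.79 ± 0.08 and Tap1 by 1.73 ± 0.12, Psmb8 and Psmb9, subunits of the immunoproteasome, by 1.72 ± 0.13 and 1.14 ± 0.21, and tapasin (Tapbp) by 0.97 ± 0.05. The loci of Tap1 and Psmb9 overlap on opposite strands, so their reads may be shared too. The non-classical H2-T23 went the other way, with 6.94 ± 1.94 CPM in Trap and 8.94 ± 1.30 CPM in Input (SD, n = 24 and 8), a log2 difference of −0.37 ± 0.13 (edgeR adjusted p = 0.00712). In all, 8 of the 9 presentation genes were higher in Trap and 1 was lower.

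The genes of the pathway around the module come from lists chosen by function. Among 12 ligands, no counts of Ifnb1, Ifng, Ifnk, Ifnl2 or Ifnl3 were found in any of the 32 libraries after rounding. With 3 counts as the limit of a count of 0, that allows up to 0.175 CPM in the shallowest library, counting error only. The list held no gene of the interferon alpha family, so nothing is said here of those genes. The chemokine Cxcl10 and the cytokine Il15 could be tested, and both were higher in Trap, by 3.13 ± 0.63 and 1.98 ± 0.23. Among the receptors and kinases, these were higher in Trap: Ifngr1 by 1.27 ± 0.06, Ifnar1 by 1.10 ± 0.05, Ifnar2 by 0.80 ± 0.07, Jak1 by 0.62 ± 0.06, Jak2 by 0.23 ± 0.08 and Tyk2 by 0.23 ± 0.08. Ifngr2, the second chain of the interferon gamma receptor, was lower in Trap, with 7.56 ± 1.08 CPM in Trap and 30.0 ± 2.91 CPM in Input (SD, n = 24 and 8), a log2 difference of −1.99 ± 0.06.

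The counts in the lists that follow stand against 44.4% of all genes higher in Trap and 43.7% lower. Upstream of interferon, 6 of 11 tested genes were higher in Trap, 4 were lower and 1 did not pass the test. Tlr3, the endosomal sensor of double-stranded RNA, averaged 104 ± 9.02 CPM in Trap and 9.96 ± 2.07 CPM in Input, a log2 difference of 3.38 ± 0.08. Its adaptor Ticam1 was higher by 2.45 ± 0.09 and Mavs, the adaptor of RIG-I and MDA5, by 2.05 ± 0.05. Of the 28 further interferon-induced genes, 20 could be tested, of which 12 were higher and 6 lower. Eif2ak2, the RNA-activated kinase PKR, was higher by 2.27 ± 0.09 and Ifit3b by 2.66 ± 0.13, while Adar, the RNA-editing enzyme, was lower (−1.58 ± 0.07). Of 15 further presentation genes 11 were higher and 2 lower, and the smallest p belonged to the chaperone Canx (1.61 ± 0.05), the peptide trimmer Erap1 (2.63 ± 0.09) and Psme1 (1.49 ± 0.06). Of the 4 MHC class II genes tested, 0 were higher and 3 lower: H2-DMa (−2.43 ± 0.12), H2-Eb1 (−1.29 ± 0.23) and Cd74 (−0.68 ± 0.26). Of 7 inhibitors of the pathway 4 were higher and 2 lower; the phosphatase Ptpn2 was higher by 1.55 ± 0.07 and the repressor Irf2 2.82-fold, and the phosphatase Ptpn6 was lower (−2.60 ± 0.17).

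The second comparison asks whether the module moved in astrocyte ribosomes after fracture. At 3 weeks, 0 of the 42 genes passed edgeR's test, where 0.111% of all 15380 genes did. There were 6 of the 42 below an unadjusted p of 0.05, as were 8.64% of all genes, and DESeq2 also called 0. At 5 weeks 0 of 42 passed (0% of all genes), with 0 at unadjusted p under 0.05 (2.76% of all genes), and at 7 weeks 0 of 42 passed (0% of all genes), with 2 at unadjusted p under 0.05 (2.85% of all genes); DESeq2 called 0 at both times. The mean of the 3 times likewise gave 0 of 42 (0% of all genes), 4 below an unadjusted p of 0.05 (4.43% of all genes), and 0 by DESeq2. The smallest p for that mean belonged to H2-D1 (0.18 ± 0.06), Nlrc5 (0.49 ± 0.20), Psmb8 (0.28 ± 0.12) and Irf1 (0.26 ± 0.12). Nlrc5 was low, at 0.818 to 2.86 CPM in Trap and 0.431 to 1.35 CPM in Input. Its differences, here and below, therefore rest on few counts. The median log2 difference from uninjured was 0.05 at 3 weeks, −0.03 at 5 weeks and 0.06 at 7 weeks, with 26, 18 and 29 of the 42 genes above 0, where 50.8%, 49.2% and 51.9% of all genes were. The 3 times share the 6 uninjured libraries. The standard error of a gene had a median of 0.146 at 3 weeks. No gene had every library of a fracture time above or below every uninjured library, in any of the 3 comparisons. Among all genes 0.364% lay wholly above and 0.449% wholly below at 3 weeks, 0.091% and 0.0845% at 5 weeks, and 0.0715% and 0.052% at 7 weeks.

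**Figure D2:**
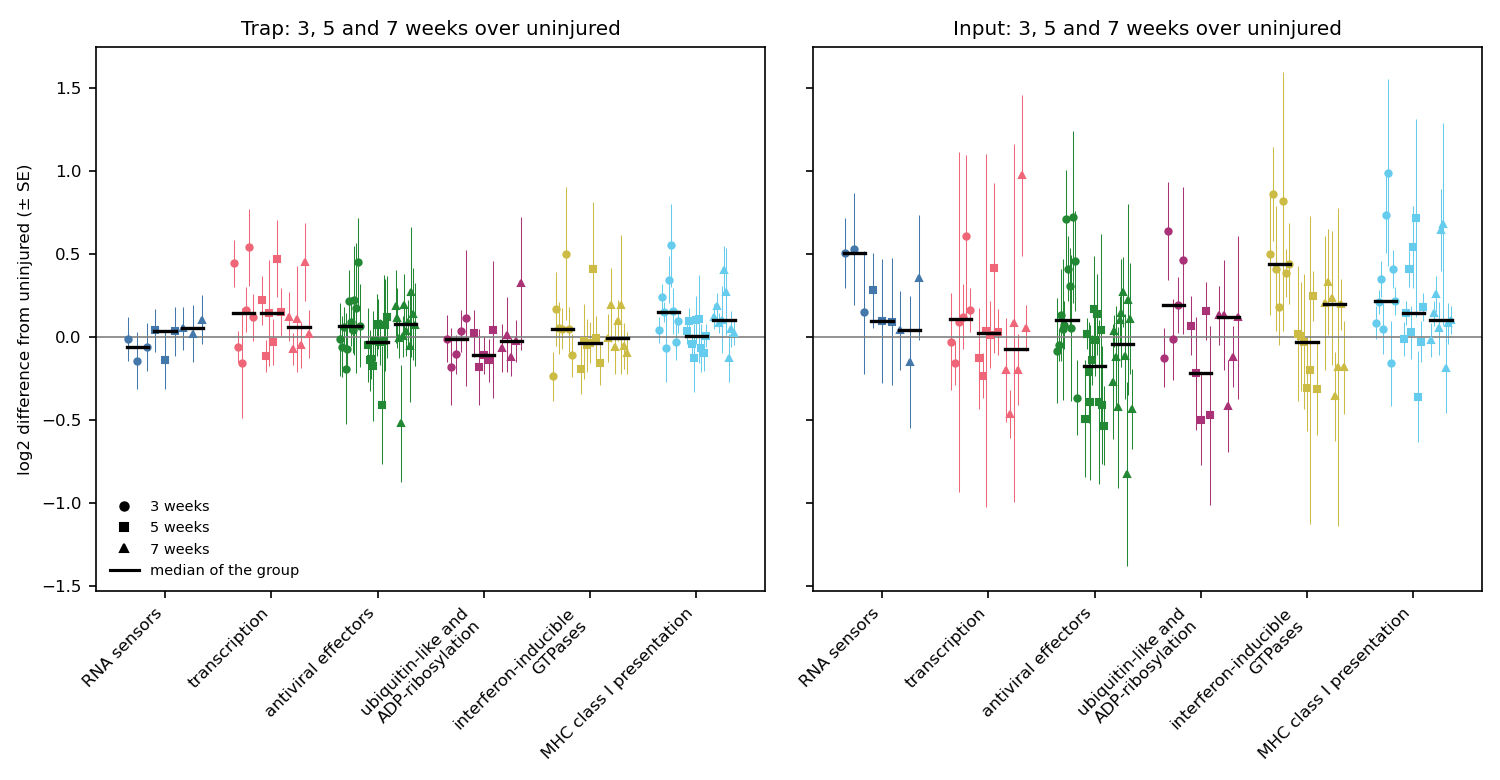
Log2 difference from uninjured (vertical axis, bars for the standard error) at 3, 5 and 7 weeks after fracture for the 42 genes by role, in Trap on the left and Input on the right; black lines are group medians. Trap values lie between −0.52 and 0.55, and no gene passed the test in either fraction.

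The smallest p at 3 weeks belonged to Irf1, H2-D1, H2-K1 and Psmb8. Irf1, an interferon-induced transcription factor, had 5.58 to 8.70 CPM at 3 weeks (median 6.89) and 4.49 to 6.21 CPM in uninjured mice (median 5.06), a log2 difference of 0.44 ± 0.14 (edgeR adjusted p = 0.265). H2-D1 had 165 to 221 CPM at 3 weeks (median 186) and 141 to 183 CPM in uninjured mice (median 157), a log2 difference of 0.24 ± 0.08 (edgeR adjusted p = 0.272). H2-K1 had 215 to 259 CPM at 3 weeks (median 229) and 189 to 234 CPM in uninjured mice (median 212), a log2 difference of 0.15 ± 0.06 (edgeR adjusted p = 0.455). Psmb8 had 9.29 to 11.6 CPM at 3 weeks (median 10.3) and 5.43 to 12.1 CPM in uninjured mice (median 8.05). Its log2 difference was 0.34 ± 0.14 (edgeR adjusted p = 0.465). With 1 library left out, the Psmb8 difference ran from 0.23, without female uninjured replicate 1, to 0.51. In each of the 4 the 3-week libraries sat toward the upper end and overlapped the uninjured ones. The 9 presentation genes had a median of 0.15 at 3 weeks, with 7 above 0, and the 12 effectors a median of 0.06.

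At 7 weeks the smallest p belonged to Psmb8, H2-D1, Nlrc5 and B2m. Psmb8 had 7.49 to 13.7 CPM at 7 weeks (median 11.5), a log2 difference from uninjured of 0.41 ± 0.14 (edgeR adjusted p = 1.0), and H2-D1 169 to 213 CPM (median 176), a difference of 0.19 ± 0.08. For Nlrc5 the difference was 0.45 ± 0.23 and for B2m 0.12 ± 0.08 at 7 weeks. The 7-week maxima of H2-D1, H2-K1, B2m and Psmb8 all came from male replicate 2, the library least like the rest. At 5 weeks the smallest p belonged to Nlrc5 (0.47 ± 0.23), Irf1 (0.22 ± 0.15), Gbp2 (−0.20 ± 0.15) and H2-D1 (0.10 ± 0.08). The Gbp2 value was −0.10 without female uninjured replicate 2, and the H2-D1 value was 0.17 without it and 0.06 and 0.07 without female uninjured replicate 1 and male uninjured replicate 2. For B2m the 95% interval of the difference was −0.03 to 0.27 at 7 weeks, and the difference was 0.05 without male 7 weeks replicate 2. Without male 7 weeks replicate 2 and female 3 weeks replicate 3, a setting chosen after seeing the data, H2-D1 passed the test at 3 weeks (0.30, edgeR adjusted p = 0.033). None of the genes in the 7 surrounding lists passed at 3, 5 or 7 weeks in Trap.

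The sexes were then taken apart. In males at 3 weeks 0 of 42 genes passed edgeR's test (0% of all genes), 2 had an unadjusted p below 0.05 (3.08% of all genes) and DESeq2 called 0. The smallest p belonged to Nlrc5 (0.93 ± 0.33), Irf1 (0.48 ± 0.21), Gbp2 (−0.41 ± 0.21) and Ifit1 (−0.80 ± 0.49). In females at 3 weeks 0 of 42 passed (0.0390% of all genes), 2 had an unadjusted p below 0.05 (8.47% of all genes), and DESeq2 called 1, H2-K1. The share of all genes that DESeq2 called in females is not given here. Over both sexes at 3 weeks DESeq2 called 136 of all genes, where edgeR called 17. The smallest p in females belonged to H2-K1, H2-D1 (0.31 ± 0.11), Irf1 (0.40 ± 0.20) and Psmb8 (0.37 ± 0.20).

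For the sex difference of the 3-week effect the smallest p belonged to H2-K1, which did not pass the test. In males it had 215, 223 and 235 CPM at 3 weeks, against 213, 225 and 234 CPM in uninjured males. In females it had 259, 253 and 221 CPM at 3 weeks, against 197, 212 and 189 CPM in uninjured females. The male libraries overlapped throughout, whereas all 3 female libraries at 3 weeks lay above all 3 uninjured female ones. In females that held for 2 of the 42 genes, Irf1 and H2-K1, and for 6.98% of all genes, and 0 of 42 lay wholly below, as did 7.79% of all genes. In males 4 of 42 lay wholly above and 2 wholly below, against 5.61% and 5.74% of all genes. The log2 difference in females was 0.30 ± 0.09 (edgeR adjusted p = 0.26), and the male effect less the female effect was −0.30 ± 0.12 (edgeR adjusted p = 1.0). Next by p were the differences for Ifit1 (−1.22 ± 0.67), Nlrc5 (0.78 ± 0.46) and Tap1 (−0.39 ± 0.28). For the sex difference 0 of 42 genes passed at any of the 3 times (0% of all genes), 1, 0 and 1 had an unadjusted p below 0.05 at 3, 5 and 7 weeks (2.59%, 3.03% and 1.97% of all genes), and DESeq2 called 0.

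In either sex at 5 and 7 weeks 0 of 42 genes passed (0% of all genes) by either tool, and 0 to 3 had an unadjusted p below 0.05, as had 2.20% to 3.87% of all genes. In males the smallest p belonged to Nlrc5 at 5 weeks (0.88 ± 0.33) and to Psmb8 at 7 weeks (0.65 ± 0.20), followed there by Irf1 (0.47 ± 0.21), H2-D1 (0.23 ± 0.11) and B2m (0.20 ± 0.11). In females it belonged to Irgm2 at 5 weeks (−0.30 ± 0.18) and to Nlrc5 at 7 weeks (0.49 ± 0.31). Over all states, males against females gave 0 of 42 (0.195% of all genes) by either tool, with 3 below an unadjusted p of 0.05 (9.79% of all genes). Ifit2 had the smallest p, with 14.8 to 24.1 CPM in males (median 18.8) and 17.1 to 26.4 CPM in females (median 22.7). The sexes overlapped, and the log2 difference was −0.23 ± 0.09 (edgeR adjusted p = 0.38). Ifitm3 (−0.21 ± 0.10), Irf9 (−0.20 ± 0.10) and Parp14 (−0.33 ± 0.16) followed.

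In whole cord the comparison rests on 2 libraries a state, 1 of each sex. Of the 42 genes 34 were above 0 in Input at 3 weeks, as were 48.3% of all genes, with a median log2 difference of 0.21, but 0 passed edgeR's test (1.08% of all genes did) and DESeq2 also called 0; 11 had an unadjusted p under 0.05, as had 13.9% of all genes. The GTPases had a median of 0.44 with 7 of 7 above 0, and the sensors 0.51 with 3 of 3 above 0. Tap2 had 15.7 CPM in females and 16.9 CPM in males at 3 weeks, against 11.7 CPM in uninjured females and 12.6 CPM in uninjured males, a log2 difference of 0.41 ± 0.12 (edgeR adjusted p = 0.106). Both libraries at 3 weeks lay above all other 6 Input libraries, as they did for 3 of the 42 genes and 2.70% of all genes, and they lay below for 0 of 42 and 1.68% of all genes. Psmb8 had 2.74 CPM in females and 4.17 CPM in males at 3 weeks, against 1.62 CPM in uninjured females and 2.47 CPM in uninjured males (0.74 ± 0.23). H2-K1 had 33.2 CPM in both sexes at 3 weeks, against 21.8 CPM in uninjured females and 30.1 CPM in uninjured males (0.35 ± 0.11). Gbp3 had 5.27 CPM in females and 3.20 CPM in males at 3 weeks, against 2.33 CPM in uninjured females and 2.25 CPM in uninjured males (0.86 ± 0.29). Without the female library at 3 weeks the differences were 0.37 for Gbp3 and 0.16 for H2-K1. Leaving out the uninjured female library gave 0.23 for H2-K1, and leaving out the male library at 3 weeks gave 0.54.

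The direction at 3 weeks turned with single libraries. The Input library of females at 3 weeks was the highest of the 8 in 27 of the 42 genes (64.3%), against 8.92% of all genes. Without it the median of the 42 genes at 3 weeks was −0.11, with 13 above 0. Without the male library at 3 weeks the median was 0.56, with 41 above 0. Each of these fits leaves 1 library at 3 weeks, assumed to vary like the rest, so no calls are given for them. The share of all genes above 0 in these fits is not given here. Of the microglial markers in Input 10 of 10 were above 0 at 3 weeks and 1 passed the test, with summed levels of 397 CPM in females and 439 CPM in males at 3 weeks, against 317 to 385 CPM in uninjured mice. The 5 MHC class II genes tested in Input, which microglia express, were also all above 0 at 3 weeks (median 0.91), and none passed the test. The part of microglia in the Input values was not tested. At 5 weeks 0 of 42 genes passed in Input (0.107% of all genes), 4 fell below an unadjusted p of 0.05 (8.49% of all genes) and the median was 0.01, and at 7 weeks 0 of 42 passed (0.214% of all genes), 3 fell below it (5.87% of all genes) and the median was 0.07. DESeq2 called 0 at both times. At 5 weeks the smallest p belonged to H2-K1 (0.41 ± 0.11), Xaf1 (−0.53 ± 0.24), Psmb8 (0.54 ± 0.25) and Tapbp (0.18 ± 0.08), and at 7 weeks to Irf3 (−0.46 ± 0.14), Psmb8 (0.65 ± 0.25), H2-K1 (0.26 ± 0.11) and Nlrc5 (0.98 ± 0.49).

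Levels over the module varied between libraries of the same sex and state, and the 4 Trap libraries that lay above the median library in 35 or more of the 42 genes were of females. The next were male 7 weeks replicate 1 with 30 genes and female 5 weeks replicate 2 with 28. Female 3 weeks replicate 1 was the highest of the 24 Trap libraries in 14 of the 42 genes (33.3%), against 2.92% of all genes, and lay above the median library in 41 of 42. Female uninjured replicate 2 was highest in 7 genes (16.7%), against 2.50% of all genes, and above the median in 35. Female 7 weeks replicate 2 was highest in 6 genes (14.3%), against 4.57% of all genes, and above the median in 39. Female 3 weeks replicate 2 was highest in 1 gene, among the 3 highest in 14 (33.3%, against 14.0% of all genes) and above the median in 35. The 4 libraries span 3 injury states, 1 of them uninjured, and 3 of them have the replicate number 2. Male 7 weeks replicate 2 was highest in 9 genes (21.4%), but also in 19.4% of all genes. Uninjured and at 3, 5 and 7 weeks, female replicate 2 lay above the median in 35, 35, 28 and 39 genes, female replicate 1 in 10, 41, 17 and 12, and female replicate 3 in 9, 9, 17 and 13. Male replicates 1, 2 and 3 lay above it in 15 to 30, 10 to 18 and 20 to 27 genes. The column headers of the deposited table give the female libraries numbered 2 a prefix of their own, as they do those numbered 3 and each number of the males, and what a prefix stands for is not given. The libraries were picked here after their values had been seen, so these counts describe them and are given with no test.

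**Figure D3:**
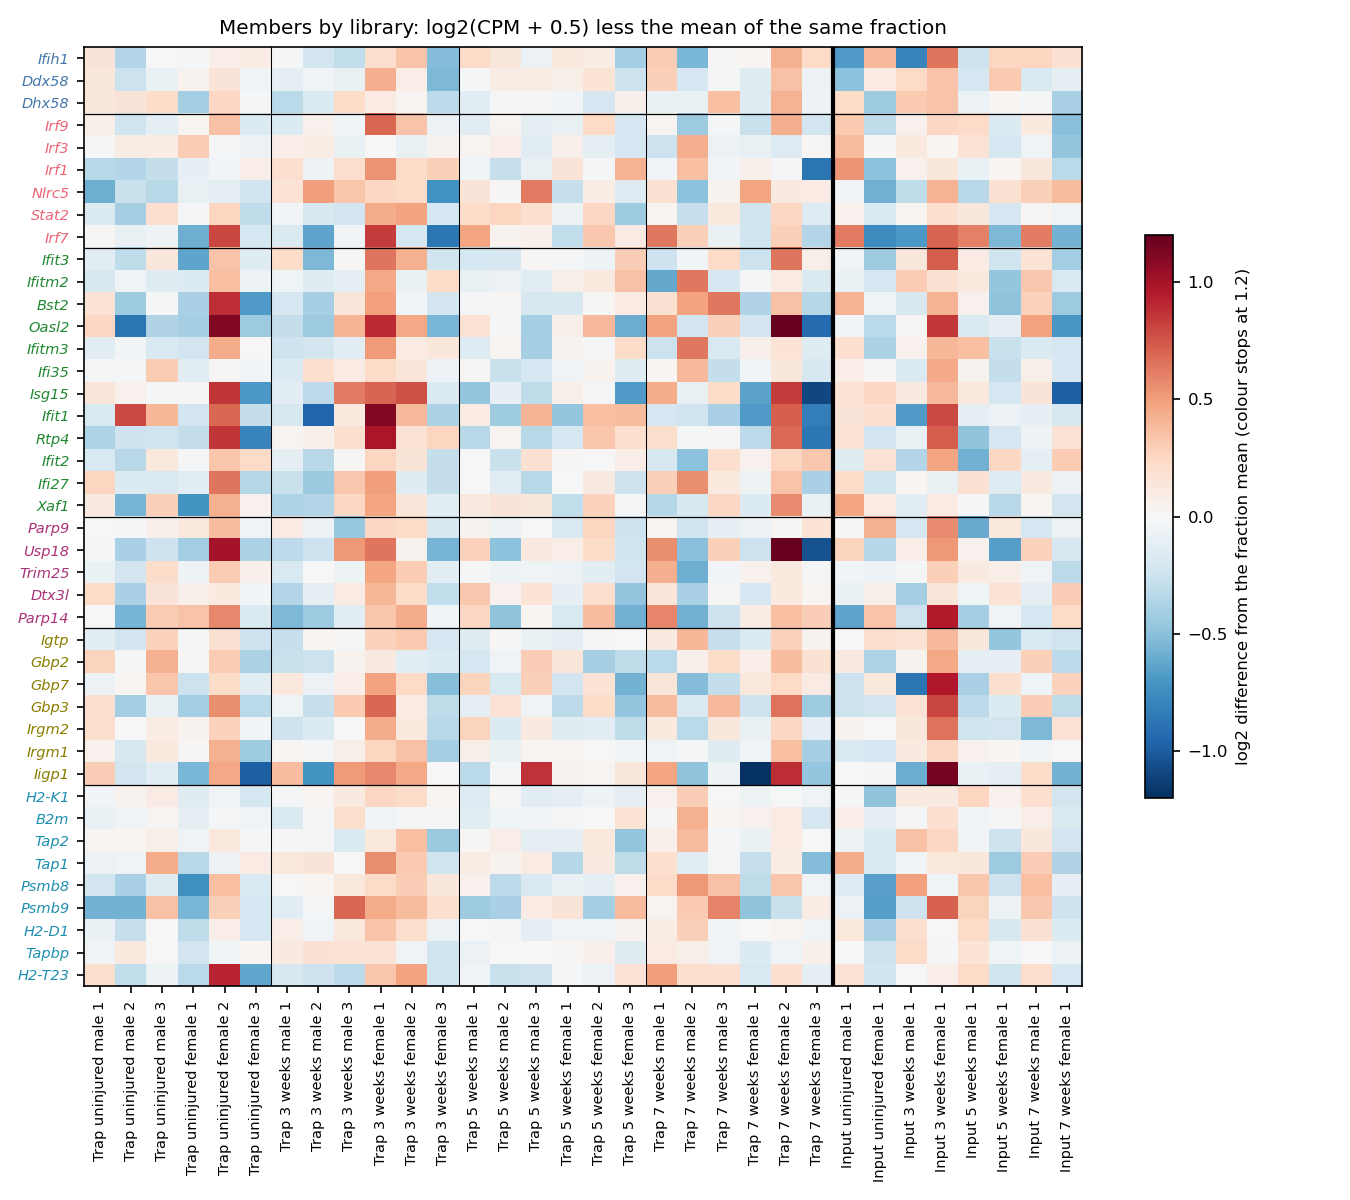
Heat map of the 42 genes (down the page, by role) in the 24 Trap libraries and the 8 Input libraries (across); colour is log2(CPM + 0.5) less the mean of that gene over its fraction. Female uninjured replicate 2, female 3 weeks replicate 1 and female 7 weeks replicate 2 lay above the median Trap library in 35, 41 and 39 of the 42 genes, and the female 3-week Input library above the median Input library in 39.

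Oasl2, a relative of the 2-5-oligoadenylate synthetases, showed the pattern most plainly and is named here after its values were seen. It had 11.3, 33.0 and 11.0 CPM in uninjured females, 28.4, 20.9 and 10.1 CPM in females at 3 weeks, 15.8, 19.8 and 9.75 CPM at 5 weeks, and 12.9, 36.4 and 7.61 CPM at 7 weeks. Males had 18.0, 7.95 and 11.6 CPM when uninjured, 12.2, 11.0 and 20.1 CPM at 3 weeks, 17.0, 14.8 and 11.3 CPM at 5 weeks, and 21.2, 12.7 and 18.4 CPM at 7 weeks. The 3 highest values were single libraries in 3 different groups of females, and the other libraries of those groups lay among the rest. In Input the female 3-week library had 7.44 CPM and the other 7 libraries 2.21 to 5.66 CPM.

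Usp18 followed the same libraries, with 5.53 CPM in female 3 weeks replicate 1, 9.55 CPM in female 7 weeks replicate 2 and 7.19 CPM in female uninjured replicate 2, against at most 5.17 CPM in the other 21. Rtp4, which helps receptors reach the cell surface, had 9.56, 7.69 and 8.71 CPM in the same order, against at most 5.93 CPM elsewhere. Gbp3 had 19.9, 19.4 and 18.2 CPM, against at most 16.1 CPM elsewhere. These 3 libraries were picked after the values of these same genes had been seen, so the counts that follow describe them and test nothing. In 6 of the 42 genes (Irf9, Oasl2, Rtp4, Xaf1, Usp18 and Gbp3) these were the 3 highest libraries, against 14 of all 15380 genes (0.091%). The other 8 of those 14 genes, named after their values were seen, were C1ra, Gbp6, Gm28439, Ifit3b, Lgals3bp, Lgals9, Mms22l and Rai14, of which Gbp6, Ifit3b, Lgals3bp and Lgals9 are in the list of further interferon-induced genes. Ifit3 had 67.1, 67.1 and 54.4 CPM in the 3 libraries, and Isg15 4.46, 4.98 and 5.04 CPM. In both, female 3 weeks replicate 2 was also among the 4 highest, at 57.6 and 4.71 CPM.

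**Figure D4:**
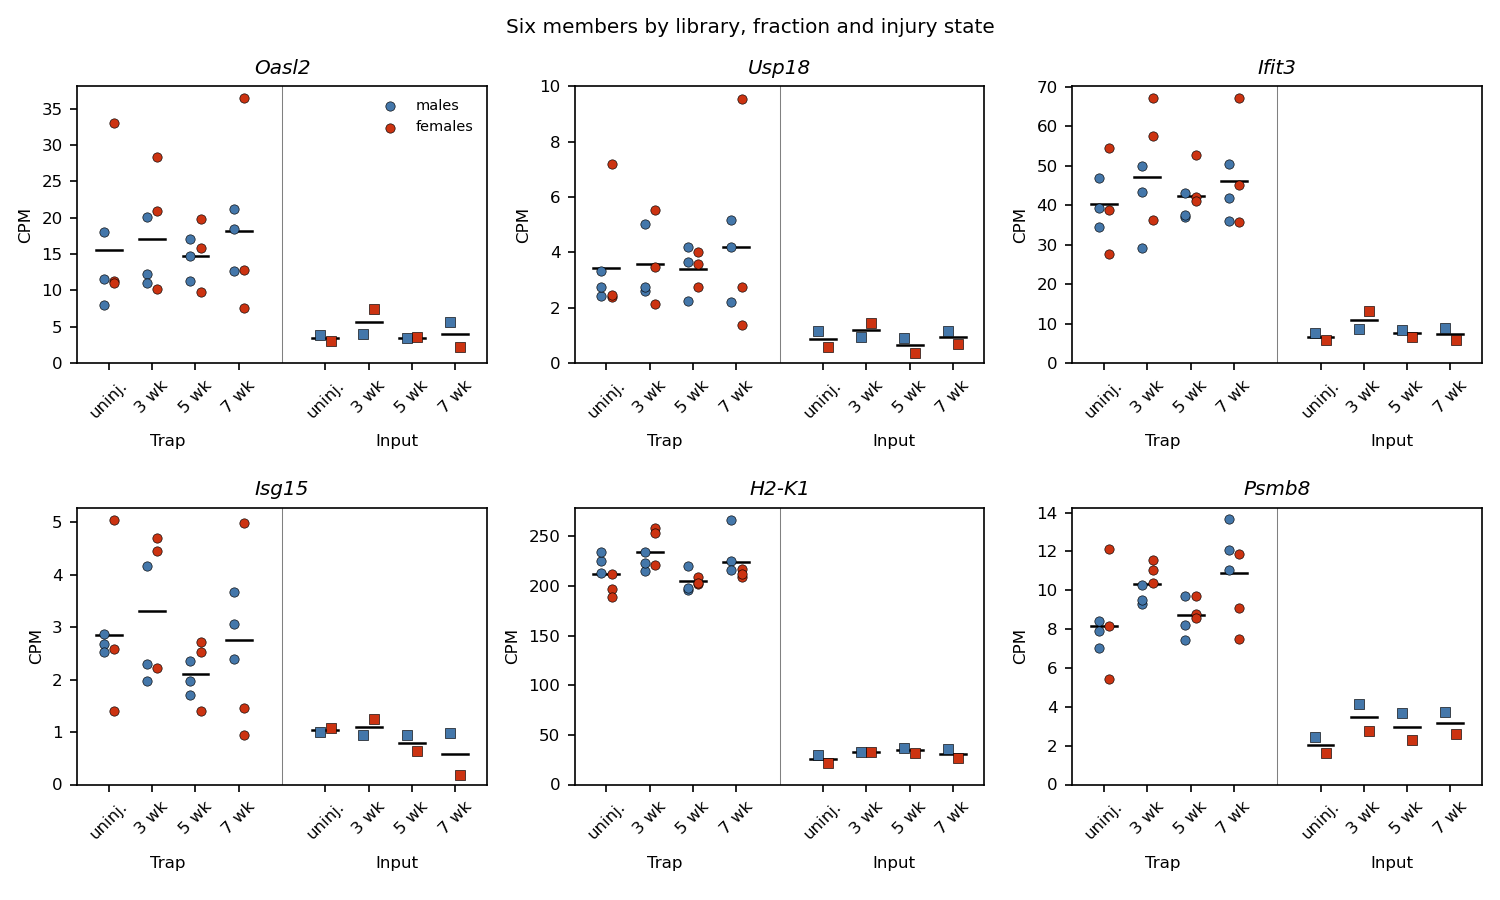
CPM of Oasl2, Usp18, Ifit3, Isg15, H2-K1 and Psmb8 in every library (points; males left of females, 3 Trap libraries and 1 Input library for each sex and state), from uninjured to 7 weeks, with black lines for the mean of each state. Oasl2 reaches 33.0 and 36.4 CPM in single female libraries of uninjured mice and of 7 weeks, whereas the Trap values of H2-K1 stay between 189 and 267 CPM.

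Markers of other cells differed among these libraries too. Microglial markers summed to 61.6 CPM in female 3 weeks replicate 1, 65.9 CPM in female 3 weeks replicate 2, 64.4 CPM in female 7 weeks replicate 2 and 79.1 CPM in female uninjured replicate 2, with a median of 62.4 CPM over Trap. The last of these sums was the second highest of 24, and apart from the 3 highest the other 21 libraries had 57.4 to 65.9 CPM. Mural and fibroblast markers summed to 292, 299, 336 and 329.5 CPM in the same order (median 275 CPM), which places female 7 weeks replicate 2 and female uninjured replicate 2 at ranks 2 and 3. Neuronal markers were below their median of 461 CPM in all 4, at 395, 272, 323.5 and 393 CPM. Endothelial markers summed to 10.8, 6.17, 7.84 and 8.83 CPM (median 10.8 CPM), oligodendrocyte markers to 3784, 2342, 3064 and 3735 CPM (median 3854 CPM), and blood and neutrophil markers to 913, 362, 620.5 and 658 CPM (median 850.2 CPM). T cell and natural killer markers summed to 0, 0.0541, 0.0503 and 0.226 CPM (median 0.0581 CPM). Astrocyte markers summed to 54737, 55350, 51675 and 51006 CPM (median 51072 CPM), the 2 highest sums being those of these 3-week libraries. The part of other cells, and of the astrocyte share, in the levels of the module was not tested.

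Between libraries of the same sex and state, 35 of the 42 genes had a wider spread than the median gene of like level. Oasl2 had a within-group standard deviation of 0.67 on log2(CPM + 0.5), higher than 99.8% of genes within 1.5-fold of its level, whose median was 0.18. Usp18 (0.64) exceeded 99.0% of genes of like level, Ifit1 (0.56) and Ifit3 (0.35) each 98.1%, Ifi27 (0.34) 97.8%, Gbp3 (0.40) 97.2%, Isg15 (0.55) and Bst2 (0.40) each 96.8%, and Rtp4 (0.46) and Iigp1 (0.60) each 96.1%. Genes of 1 class differed in spread, and the classes were not tested against each other. The share of like genes exceeded ran from 26.8% (Ifi35) to 99.8% over the 12 effectors (median 96.4%), from 52.4% (Irgm2) to 97.2% over the 7 GTPases (median 88.2%) and from 19.6% to 89.4% over the 9 presentation genes (median 71.1%). Of the presentation genes, H2-K1 (0.09) exceeded 19.6% of genes of like level, Tapbp (0.11) 27.0%, H2-D1 (0.13) 50.8% and B2m (0.13) 52.6%. Tap2 exceeded 81.0%, Psmb8 73.0%, Tap1 72.7% and Psmb9 71.1%. The non-classical H2-T23 (0.35) exceeded 89.4%, and its highest value, 13.1 CPM, came from female uninjured replicate 2. The sensor Dhx58 (0.23) exceeded 13.9%.

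**Figure D5:**
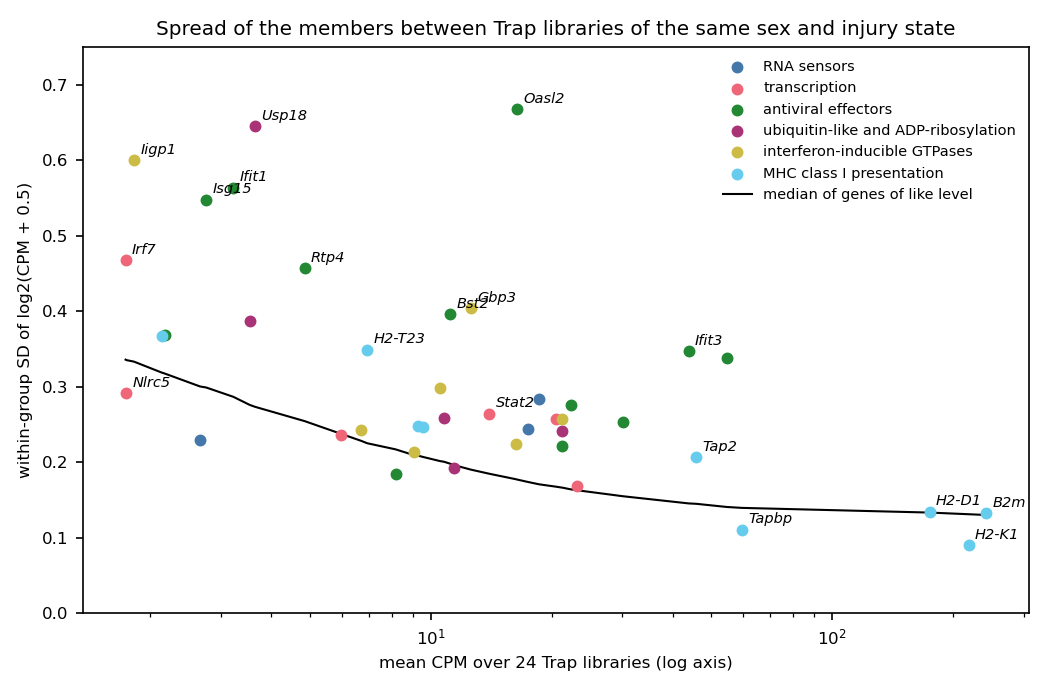
Within-group standard deviation of log2(CPM + 0.5) over the 24 Trap libraries (vertical axis) against mean CPM (horizontal log axis) for the 42 genes, coloured by role; the line joins the medians of genes of like level. Oasl2 and Usp18 lie far above the line at 0.67 and 0.64, and H2-K1 and Tapbp lie below it at 0.09 and 0.11.

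Single libraries also moved the medians after fracture. At 3 weeks in Trap the median over the 42 genes was 0.05 with 26 above 0. Without female uninjured replicate 2 it was 0.17 with 34 above 0, and without female 3 weeks replicate 1 it was −0.01 with 20 above 0. In females alone the median was 0.14 with 32 above 0, it was 0.35 with 40 above 0 without the uninjured library, and −0.01 with 19 above 0 without the 3-week library. In these fits with 1 library left out, 0 of the 42 genes were called at 3 weeks, both for the mean of the sexes and for females. In males alone the median at 3 weeks was −0.03 with 17 above 0. Set 1 library against 1 by number, females at 3 weeks against uninjured females had medians of 0.63 with 40 of 42 above 0 for number 1, −0.07 with 17 above 0 for number 2 and 0.02 with 22 above 0 for number 3. Males at 3 weeks against uninjured males had −0.10, 0.09 and −0.00349, with 17, 26 and 21 above 0. These single differences have no replicate check.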

How the data were processed

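RNA of spinal cord homogenate (Input) and of HA-tagged ribosomes pulled down from it (Trap) was sequenced from poly-A libraries, per the labels' protocols. The authors deposited RSEM estimated counts per gene, which are expected counts, with 6.21% to 8.53% of a library's values not whole. Per the submitters' processing notes, FastQC, Trim Galore, STAR, RSEM and the build GRCm38 were used. Versions, annotation release and strand setting are not given in the sources used here. Reads shared by similar genes are apportioned by RSEM, so near copies are uncertain.

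Counts were rounded here. Symbols came from the reference annotation of GRCm38; 797 identifiers without one held 0.301% of counts. Groups follow the sample titles. Genes passing filterByExpr were scaled by TMM and tested with edgeR 4.0.16 in R 4.3.3, by the quasi-likelihood test, two-sided, with Benjamini-Hochberg adjustment over all genes and a threshold of 0.05. Trap was set against Input over 32 libraries with sex and state as terms, injury states and sexes over 24 Trap libraries with a mean per sex and state, and Input states over 8 libraries with sex as a term (15913, 15380 and 16803 genes, with 26, 16 and 3 residual degrees of freedom). CPM are counts scaled to a common library total after TMM scaling. DESeq2 1.42.0, DESeq2 size factors, no filter, other sets of libraries, a replicate block and leaving out each library were alternatives. The tests were tried on simulated data.

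The 44 genes and the gene lists were chosen with earlier results of these data known. Genes are named by rule: up to 8 called genes per direction by fold, otherwise the 4 with the smallest p, the 2 with the smallest p of each role in Trap against Input, and a panel (B2m, H2-D1, H2-K1, Tap1, Psmb8, Ifitm3, Isg15, Ifit3, Irf7, Irf9, Stat2, Iigp1, Bst2). Pathway genes are named as a fixed set of receptors and kinases, of which 1 gene is not reported here, and, per other list, up to 3 called genes with the smallest p. Others are named beyond the rule, after their values were seen.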

Additional observations from a re-analysis of the deposited data

Results flagged for a closer look

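There were 210 sets of values, each 1 gene in the 6 Trap libraries of a state or the 8 Input libraries. Of these, 23 had a library far from the others by Dixon's test. Chance would give about 1 in 20 if the values were normally distributed. The share flagged over all genes was not computed, so the 23 are not read as particular to these genes. Many of the 23 point to the same few libraries.

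Female uninjured replicate 2 was high among the uninjured Trap libraries in 6 genes. Irf7 had 3.23 CPM there, against 0.931 to 1.66 CPM in the others, Ifitm2 28.2 against 19.2 to 21.3, Ifitm3 40.6 against 25.2 to 29.6, Rtp4 8.71 against 2.45 to 3.82, Usp18 7.19 against 2.38 to 3.32, and Parp9 14.8 against 11.0 to 12.4. Female 3 weeks replicate 1 was high in Irf7 (3.33 CPM against 0.674 to 1.58) and Rtp4 (9.56 against 4.73 to 5.58). Female 7 weeks replicate 2 was high in Ifit1 (5.23 CPM against 1.46 to 2.52). The female 3-week Input library was high among the 8 Input libraries in Ifit3 (13.3 CPM against 5.71 to 8.81), Rtp4 (3.67 against 1.30 to 2.34), Ifi35 (3.45 against 1.87 to 2.55), Iigp1 (1.99 against 0.243 to 0.809) and Gbp3 (5.27 against 2.16 to 3.53).

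Male 7 weeks replicate 2, the library least like the rest over all genes, was high in Irf3 (31.4 CPM against 19.2 to 23.3), H2-D1 (213 against 169 to 185), H2-K1 (267 against 209 to 225) and Tap2 (59.1 against 42.9 to 48.8). The remaining values came from other libraries. Ifih1 was low in male uninjured replicate 2 (14.2 CPM against 18.2 to 20.5), and Nlrc5 was low in female 3 weeks replicate 3 (0.818 against 1.94 to 2.58). Ifi35 was high in male uninjured replicate 3 (10.1 CPM against 7.39 to 8.20), Iigp1 in male 5 weeks replicate 3 (3.45 against 1.23 to 1.90), and Xaf1 in the Input library of uninjured males (4.43 against 2.33 to 3.31).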

How the results depend on the processing

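The count of the 42 genes called in Trap against Input was 40, and it was 40 or 41 under every alternative run, 40 to 41 with a library left out, and 40 in a replicate block of 8 numbered pairs. With DESeq2 size factors the median of all genes in that comparison moved from 0.02 to −0.08, and that of the 42 genes from 1.67 to 1.57. After fracture 0 of the 42 genes were called, except in these settings. Without the 2 libraries that stood apart, 1 gene was called in Trap at 3 weeks (H2-D1) and 1 in females (H2-K1). DESeq2 called 1 in females at 3 weeks. Fits of Input with a library left out are not counted here, since each leaves 1 library in a state. With a replicate block, in which both sexes shared the term of a number, the count stayed at 0 in every Trap comparison. Such a block cannot fully take up a shift of a number in 1 sex alone. Over all genes, the 17 calls at 3 weeks in Trap became 136 by DESeq2, 34 without the filter, 44 with the replicate block, 106 without the 2 libraries that stood apart, and 3 to 57 with a library left out (3 without male uninjured replicate 2, 57 without male 7 weeks replicate 2). The cause was not tested. The numbers are not known to pair libraries. For same-sex Trap libraries of the same number, deviations from the group mean correlated at −0.06 to 0.29 (median 0.08). For same-sex libraries of other numbers the range was −0.33 to 0.13 (median −0.04). For the same number in the other sex it was −0.26 to 0.13 (median −0.005). What the numbers stand for was not tested. Single-gene differences were refitted for the 42 genes in Trap against Input, for 4 genes at each time in Trap and for 4 genes at 3 weeks in Input, and 0 of these 58 reversed; the others named were not refitted. With 1 Input library per sex and state, Input changes rest on 3 residual degrees of freedom. Genes near 1 CPM, such as Isg15 in Input, rest on few counts, and the limit of a count of 0 was 0.129 CPM in the deepest library and 0.175 CPM in the shallowest.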
